A study of Mus musculus with 6 samples.

Results

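The BCL2 family decides whether a cell's mitochondria release the factors that start apoptosis, and Cflar decides whether death receptors can switch on caspase-8. Measured here were 9 of 10 such genes, out of 19938 genes on the arrays. The 10 are listed by role: the survival genes Bcl2, Bcl2l1, Mcl1 and Cflar, and the death genes Bax, Bak1, Bcl2l11, Bid, Pmaip1 and Bbc3. A gene counted as measured where the platform annotation gave a row of the value table its symbol and no other, and of several such rows the one averaging highest on the 6 arrays was kept. Bax had no such row and was not analysed here.

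The cells were CD11b+Gr-1+ cells sorted from liver, which the labels call myeloid-derived suppressor cells, a mix of immature granulocytic and monocytic cells. All donors were C57BL/6 mice in which tumours of EL4, a mouse T cell lymphoma line, had been established. One group received Con A of type IV, concanavalin A, a lectin used in mice to bring about T cell-driven hepatitis, and the other received PBS, which the titles call untreated; cells were collected after 3 hours, with 3 arrays per group. The dose reads 12.5 mg/kg in one label and 12.5 ug/kg in another, and mouse age and sex are not given in the sources used here. The labels speak of 3 mice per group without tying an array to 1 mouse, so each p-value reflects only how far these samples scatter, part of which may be technical.

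BCL2, BCL-XL (from Bcl2l1) and MCL1 sit on the outer mitochondrial membrane and hold the pore formers BAX and BAK in check. The BH3-only proteins BIM (Bcl2l11), BID, NOXA (Pmaip1) and PUMA (Bbc3) block these guardians, and some of them also activate BAX and BAK directly. c-FLIP, the product of Cflar, resembles caspase-8 without its protease activity and limits caspase-8 at death receptors. BID is cut by caspase-8, which ties the receptor route to the mitochondrial one. Neutrophils are short-lived cells that depend on MCL1 for survival.

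After Con A, Bcl2l1 and Cflar rose to 1.85-fold and 1.82-fold of their PBS levels and Bid fell to 0.574 of its PBS level. The Cflar value is that of probe set 10497931, the less certain of its rows. Cflar's probe sets 10346551 and 10346562 gave 1.89-fold and 2.04-fold. The other 6 measured genes, Bcl2, Mcl1, Bak1, Bcl2l11, Pmaip1 and Bbc3, did not pass the test, and their differences lay between 0.04 and 0.20 on the log2 scale. Thus 3 of 9 members passed, 2 higher and 1 lower, where 11.8% of all genes passed, 4.59% higher and 7.22% lower. The test was limma, with p-values adjusted by Benjamini and Hochberg's method across the 19938 genes and called under 0.05. Levels below are the deposited log2 values, differences are Con A minus PBS on that scale, and means carry the SD with n = 3. The sorted cells are a mixture, so more or fewer cells of a type and more or less RNA per cell cannot be told apart.

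Bcl2l1 (probe set 10488655) read 9.14, 9.30 and 9.26 on the Con A arrays, against 8.19, 8.30 and 8.56 on the PBS arrays. All 3 Con A values lay above all 3 PBS values, with a gap of 0.59 between the groups, and the Con A arrays were close to each other. The means were 9.24 ± 0.08 after Con A and 8.35 ± 0.19 after PBS (SD, n = 3 each), a difference of 0.88 on the log2 scale (95% interval 0.63 to 1.14, limma adjusted p = 0.00264). With any 1 array left out the difference stayed between 0.81 and 0.99, and the adjusted p reached 0.0186 at most. Without moderation of the variances the adjusted p was 0.0499, only just under the threshold.

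Cflar (probe set 10497931) read 10.84, 11.20 and 11.14 after Con A, against 10.12, 10.03 and 10.45 after PBS. The groups did not overlap, and the gap between them was 0.39. The means of 11.06 ± 0.20 after Con A and 10.20 ± 0.22 after PBS (SD, n = 3 each) differed by 0.86 (95% interval 0.53 to 1.19, limma adjusted p = 0.00859). Cflar is the member with several rows. The annotation gives all 3 to Cflar, but the number of probe set 10497931 lies far from the numbers of the other two, and where its probes map was not checked here, so that row is the less certain one. Cflar's probe set 10346551 averaged 10.88 ± 0.17 after Con A and 9.97 ± 0.18 after PBS, and its probe set 10346562 averaged 9.73 ± 0.11 after Con A and 8.70 ± 0.21 after PBS. Both rows were separated without overlap as well, with differences of 0.92 and 1.03 and adjusted p of 0.00393 and 0.00228 by limma. The call on the first row ended without moderation of the variances (adjusted p = 0.0889), and with 1 array left out the adjusted p reached 0.0481.

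**Figure D1:**
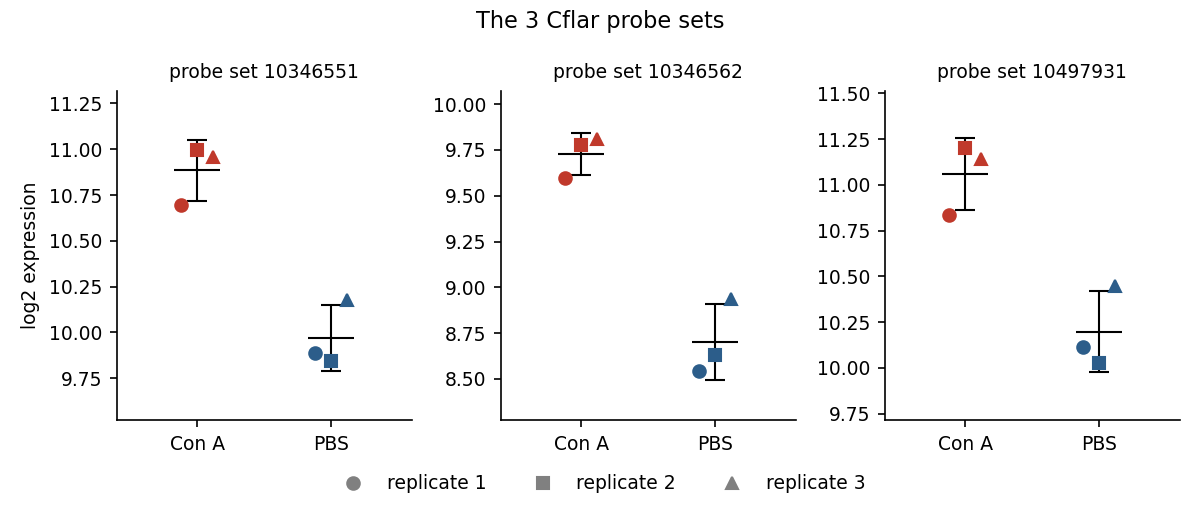
Log2 expression of the 3 Cflar probe sets on each array, with Con A at the left and PBS at the right of each panel; symbols mark the replicate, and bars give mean and SD of 3 arrays. In all 3 panels every Con A array lies above every PBS array, and PBS replicate 3 is the highest of the PBS arrays.

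Bid (probe set 10547531) moved the other way. It read 9.18, 9.20 and 9.30 after Con A, against 10.10, 10.02 and 9.96 after PBS. The groups were separated by 0.66, more than the spread within either of them. The means were 9.22 ± 0.06 after Con A and 10.03 ± 0.07 after PBS (SD, n = 3 each), a difference of -0.80 (95% interval -0.98 to -0.63, limma adjusted p = 0.00128). Leaving out any 1 array gave differences from -0.84 to -0.76 and an adjusted p of 0.0107 at most.

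The sequences before the start sites of the 3 genes that passed are shown because the members moved in opposite directions; each is the stretch of 250 bases that ends just before a RefSeq start (GRCm38.p6), written 5′ to 3′ on the strand of the gene. The Bcl2l1 window lies at chr2:152830718-152830967 on the minus strand and is 1 of 3 for that gene, the one with a motif match. The Cflar window lies at chr1:58711241-58711490 on the plus strand, and the Bid window at chr6:120916825-120917074 on the minus strand. Capitals mark a match to the NF-kB motif.
Bcl2l1: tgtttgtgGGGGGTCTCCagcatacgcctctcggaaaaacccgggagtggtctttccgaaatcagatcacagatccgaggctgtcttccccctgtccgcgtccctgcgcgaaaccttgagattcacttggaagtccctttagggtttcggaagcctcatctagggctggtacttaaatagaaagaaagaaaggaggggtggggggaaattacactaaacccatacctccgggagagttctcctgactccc
Cflar: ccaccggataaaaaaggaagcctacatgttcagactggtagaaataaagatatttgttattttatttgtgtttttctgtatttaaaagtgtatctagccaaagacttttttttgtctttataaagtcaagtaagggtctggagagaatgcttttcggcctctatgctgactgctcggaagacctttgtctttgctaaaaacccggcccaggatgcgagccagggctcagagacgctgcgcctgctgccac
Bid: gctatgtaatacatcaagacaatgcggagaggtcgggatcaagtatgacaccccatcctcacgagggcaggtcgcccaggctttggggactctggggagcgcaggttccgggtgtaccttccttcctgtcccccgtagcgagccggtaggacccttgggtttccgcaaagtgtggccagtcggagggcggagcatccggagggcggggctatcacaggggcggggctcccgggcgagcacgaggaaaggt

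Searched on both strands were the NF-kB motif, the STAT motif TTCNNNGAA (a GAS element) and the forkhead motif GTAAACA. The Bcl2l1 match to the NF-kB motif spans bases 242 to 233 before the start. Of 32851 RefSeq windows of the same length, 7.25% held that motif, 7.02% the GAS element and 3.17% the forkhead motif. Member windows on the chromosome of Pmaip1 were left out, so that gene has no window here. The 32851 windows were counted without this step. The RefSeq table then gave 13 windows for 8 members. Of these, 2 held the NF-kB motif (Bcl2l1, and Bbc3 with overlapping matches), 0 the GAS element and 2 the forkhead motif (Bcl2l11 and Bbc3). A match describes these letters and shows no binding.

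Among the guardians, Mcl1 (probe set 10494306) read 12.36, 12.42 and 12.36 after Con A, against 12.25, 12.05 and 12.33 after PBS. Every Con A array was above every PBS array, but only by 0.035, and a separation of this kind was found in 29.9% of all genes. The means were 12.38 ± 0.04 after Con A and 12.21 ± 0.14 after PBS (SD, n = 3 each), a difference of 0.17 (95% interval -0.04 to 0.38, limma adjusted p = 0.296). The upper bound of the interval is below the difference measured for Bcl2l1.

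Bcl2 (probe set 10357043) read 9.08, 8.48 and 9.31 after Con A, against 8.99, 8.49 and 9.17 after PBS. The groups overlapped almost fully, and the spread within each group, 0.83 after Con A and 0.68 after PBS, was far wider than the difference of 0.08 (95% interval -0.49 to 0.65, limma adjusted p = 0.89). Replicate 2 was the lowest array in both groups. The difference was -0.10 without Con A replicate 3 and -0.12 without PBS replicate 2, so its direction is not settled.

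Bak1 (probe set 10449303), which encodes the pore former BAK, read 10.94, 10.72 and 10.998 after Con A, against 10.78, 10.77 and 10.86 after PBS. Con A replicate 2 lay below all PBS arrays and the other two above them. The means of 10.89 ± 0.14 after Con A and 10.80 ± 0.05 after PBS (SD, n = 3 each) differed by 0.09 (95% interval -0.13 to 0.30, limma adjusted p = 0.63).

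Of the BH3-only genes other than Bid, Bbc3 (probe set 10550290) varied least. It read 8.65, 8.67 and 8.60 after Con A, against 8.67, 8.52 and 8.61 after PBS, and the interval of its difference, -0.13 to 0.21, kept any change below that of Bid in size. Bcl2l11 (probe set 10475866) read 9.96, 10.44 and 10.66 after Con A, against 10.12, 10.01 and 10.50 after PBS. The lowest array of that gene belonged to the Con A group, and its difference of 0.14 had a wide interval of -0.32 to 0.60 (limma adjusted p = 0.722). Pmaip1 (probe set 10456357) read 9.51, 9.72 and 9.91 after Con A, against 9.60, 9.05 and 9.88 after PBS. PBS replicate 2 stood low there, and the difference of 0.20 (95% interval -0.28 to 0.69, limma adjusted p = 0.611) became -0.03 without that array. For Bcl2l11 it was -0.01 without Con A replicate 3, and for Bbc3 the difference of 0.04 (limma adjusted p = 0.815) became -0.004 without PBS replicate 2.

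**Figure D2:**
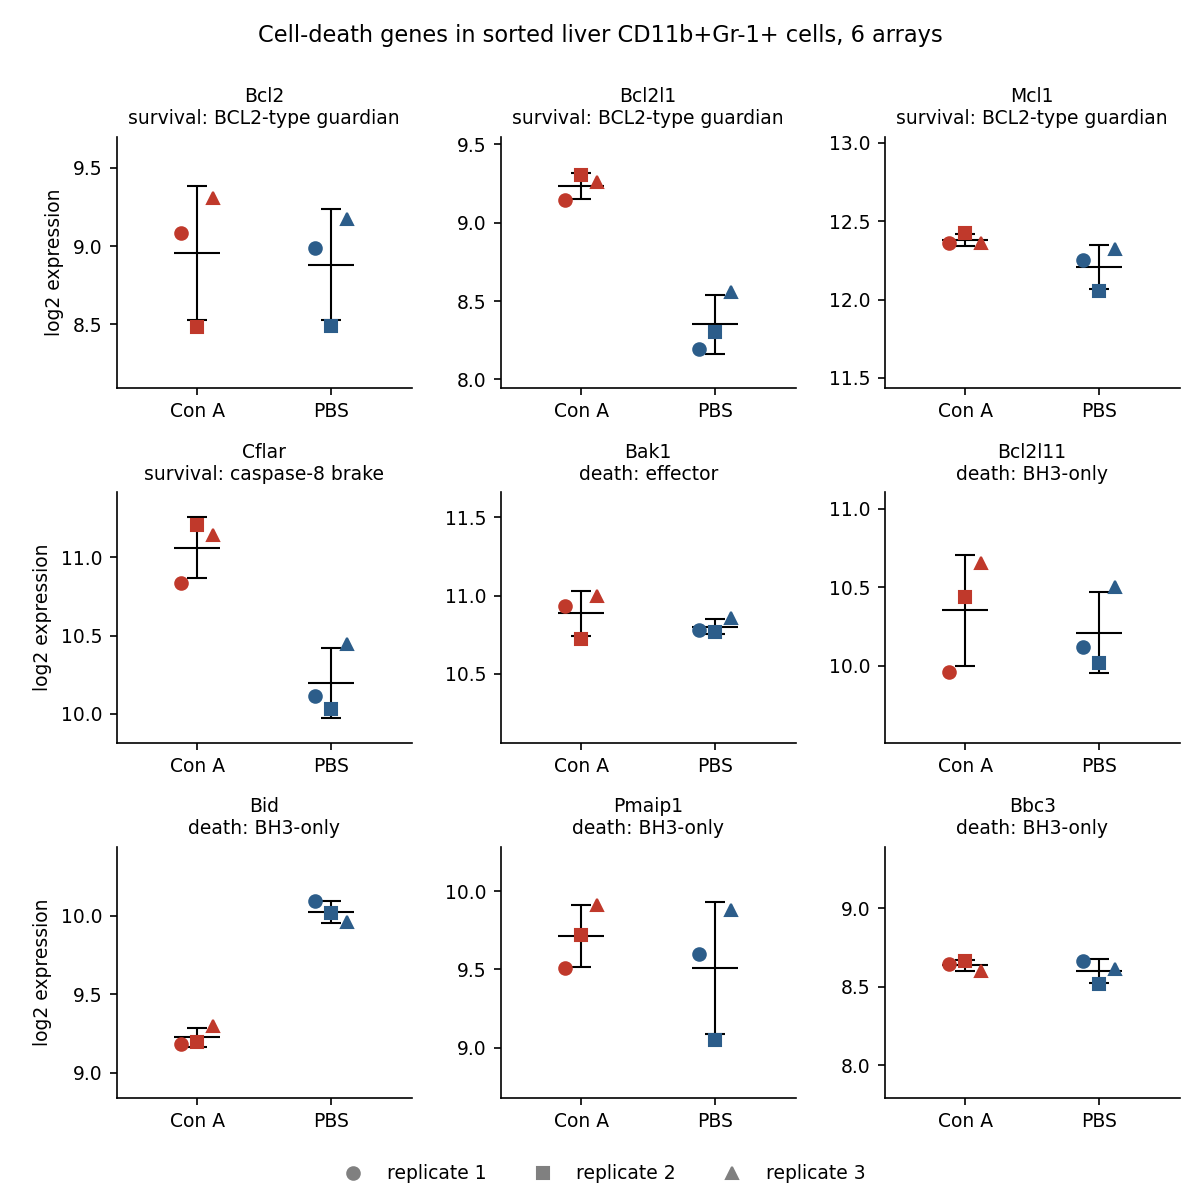
Log2 expression of the 9 measured genes on each array, with Con A at the left and PBS at the right of each panel; symbols mark the replicate, bars give mean and SD of 3 arrays, and all panels span the same height on the log2 scale. Bcl2l1, Cflar and Bid are separated by 0.59, 0.39 and 0.66, Mcl1 by 0.035, and the groups overlap in the other 5 panels.

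**Figure D3:**
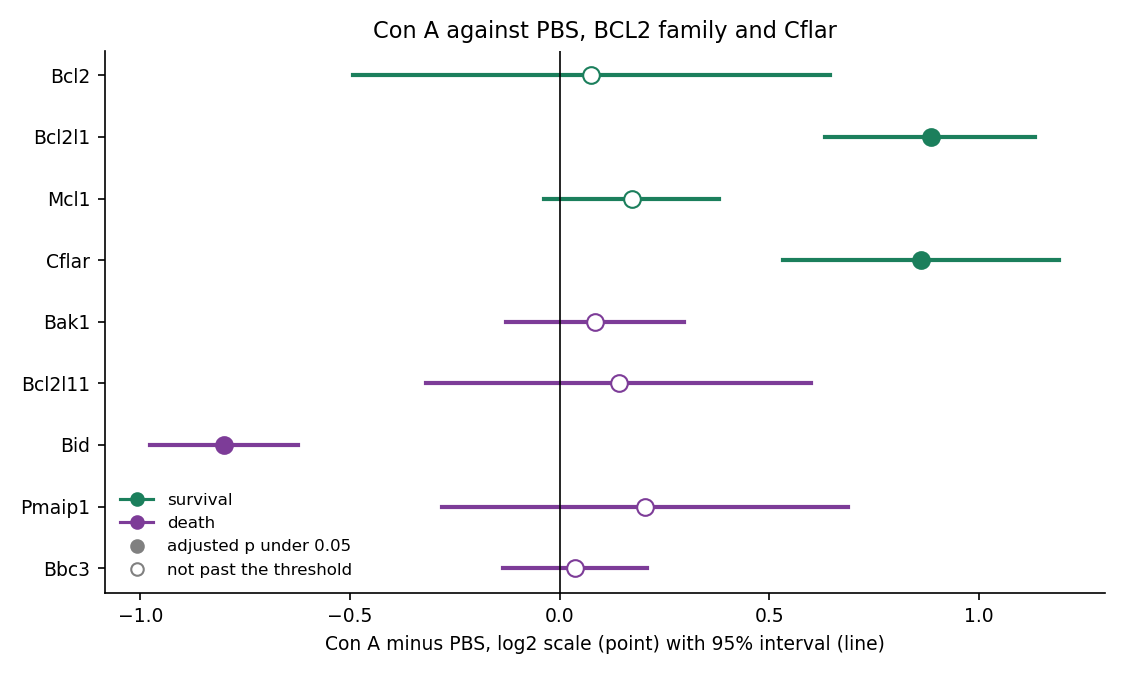
Con A minus PBS on the log2 scale (points) with the 95% interval of the limma fit (lines) for the 9 measured genes, coloured by survival or death role; filled points passed the threshold. Bcl2l1 at 0.88 and Cflar at 0.86 lie right of 0 and Bid at -0.80 lies left of it, while the intervals of the other 6 genes span 0.

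Set side by side, the 4 survival genes had a median difference of 0.52 and the 5 measured death genes one of 0.09, where the median of all genes was 0.02. Of the survival genes 2 rose, Bcl2l1 by 0.885 and Cflar by 0.863, and 0 fell. Bcl2 and Mcl1 differed by 0.076 and 0.172 and did not pass. The survival median thus lies between these pairs, and Bcl2l1 and Cflar contribute most of the survival average given next. Of the death genes 0 rose and 1 fell. Among all genes 4.59% passed higher and 7.22% lower, and at such shares counts of 0 in so few genes mark no contrast between the roles. Averaged over the survival genes, the Con A arrays lay 0.45, 0.44 and 0.61 above the mean of the PBS arrays, which themselves lay at -0.02, -0.19 and 0.22 around it. The death genes averaged -0.18, -0.08 and 0.06 after Con A, against 0.02, -0.16 and 0.13 after PBS. The survival average separated the groups and the death average did not, since 4 of the 5 death genes were slightly higher after Con A and Bid was lower. With either of the other Cflar rows in place of 10497931, the survival average was 0.45 to 0.65 after Con A and -0.18 to 0.21 after PBS. These averages describe the members and carry no test.

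Genes whose levels followed single members most closely over the 6 arrays were taken from 9968 genes above the median of gene means. Read by probe set 10497931, Cflar was matched best by Tnf (Pearson r = 0.9995), which encodes the cytokine TNF and rose by 1.15. Next came Paqr3 (0.9989) and Ggct (0.9988), both sought for that row only. The other Cflar rows, 10346551 and 10346562, correlated with Tnf at 0.9976 and 0.9849. For Bcl2l1 they were Denr, Donson and the prion protein gene Prnp, each at 0.9981. For Mcl1 the closest were Nle1 (0.9895), Ddx6 (0.986) and Fam71e1 (0.9847), and for Bcl2l11 Etv6 (0.9884), Cnnm2 (0.9871) and Nfkbid (0.9867). These coefficients rest on 6 arrays that share the split into Con A and PBS, so they describe likeness and no more.

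Other genes of the BCL2 family were measured in 14 of 17 cases, of which 2 rose and 1 fell, with a median of 0.04. Of all genes 4.59% passed higher and 7.22% lower, and these shares also stand beside the counts of the lists below. Bmf, a further BH3-only gene, read 8.44, 8.47 and 8.62 after Con A, against 9.82, 9.65 and 9.78 after PBS, which put it 2.36-fold lower (limma adjusted p = 0.000563). The mitochondrial autophagy receptor genes Bnip3 and Bcl2l13 rose by 1.10 and 0.67 (limma adjusted p = 0.00575 and 0.00587). The values of all 3 separated the groups without overlap. Averaged over all its rows, Bnip3 rose by 0.97 (limma adjusted p = 0.0126). Bcl2a1c, of the A1 survival genes, differed by 0.64 (95% interval -0.07 to 1.35, limma adjusted p = 0.252) with PBS replicate 3 at 11.27 among the Con A values of 10.88, 11.39 and 11.35. Near-identical copies of this gene may share its probes, which makes the row uncertain, and without PBS replicate 3 its adjusted p was 0.0114.

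Death receptors and their complex showed the most calls of the 6 pathway lists, which were chosen with earlier results of these data known. Of 17 measured genes 7 rose and 1 fell, with a median of 0.28, where 4.59% of all genes passed higher and 7.22% lower. Mlkl, which ruptures the membrane in necroptosis, rose 2.74-fold: its mean was 9.455 ± 0.111 in the Con A group and 8.002 ± 0.282 in the PBS group (SD, n = 3 each). Tnf and the receptor gene Fas were 2.21-fold and 2.12-fold higher. Casp8, whose product c-FLIP restrains, rose by 0.46, the necroptosis kinase gene Ripk3 by 0.47, and the ubiquitin regulators Cyld and Rnf31 by 0.66 and 0.53. Tnfrsf21, which encodes death receptor 6, fell by 1.30, to 10.28 ± 0.25 after Con A, against 11.58 ± 0.09 after PBS (SD, n = 3 each). The adaptor gene Fadd stood at 7.47 ± 0.06 after Con A and 7.46 ± 0.14 after PBS (SD, n = 3 each) and did not pass. The count of higher genes was 4 without Con A replicate 2, Con A replicate 3 or PBS replicate 2, and 3 without PBS replicate 1; the genes lost were among Fas, Ripk3, Casp8 and Rnf31, while Mlkl, Tnf, Cyld and Tnfrsf21 passed each time.

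Downstream of mitochondria, 2 of 11 genes of the apoptosome and the executioners rose and 2 fell, with a median of -0.07. Casp6, an effector caspase gene, rose 2.82-fold, at 11.76 ± 0.20 after Con A and 10.27 ± 0.43 after PBS (SD, n = 3 each). Casp9, the initiator caspase gene of the mitochondrial route, fell by 0.75 (limma adjusted p = 0.00416), and the gene of its platform Apaf1 rose by 0.36 (limma adjusted p = 0.0468). Dffb, which encodes the nuclease CAD, fell by 0.43. The Apaf1 call ended with any 1 array left out, and the Dffb call ended in 5 of the 6 such fits, all but that without PBS replicate 3, with adjusted p up to 0.142 and 0.107.

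Of 8 measured inhibitor of apoptosis genes, 2 rose and 1 fell, with a median of -0.12. Birc3 and Birc2, which encode the ubiquitin ligases cIAP2 and cIAP1 of the TNF receptor complex, rose by 0.96 and 0.67 (limma adjusted p = 0.00416 and 0.00373). Birc3 read 11.99, 12.27 and 12.21 after Con A, against 11.19, 10.99 and 11.43 after PBS. Averaged over all its rows, Birc2 rose by 0.45 (limma adjusted p = 0.0149), less than its kept row. Xiap, the direct caspase inhibitor, differed by -0.13 (95% interval -0.31 to 0.06, limma adjusted p = 0.38). Naip6 fell by 0.41, a call that ended without PBS replicate 1 (adjusted p = 0.0587); the Naip genes are close copies, so this row is uncertain.

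Of 16 measured genes that act on the members, 2 rose and 3 fell, with a median of -0.08. The survival kinase genes Pim1 and Pim2 rose by 1.12 and 1.43. Foxo3, a transcription factor known to induce Bcl2l11 and Bbc3, fell by 0.73, at 9.504 ± 0.22 after Con A and 10.23 ± 0.08 after PBS (SD, n = 3 each). The ubiquitin ligase gene Itch, whose product marks c-FLIP for degradation, fell by 0.45, and the kinase gene Akt1 by 0.29. The calls of Itch and Akt1 held without PBS replicate 3 and ended in each of the other 5 fits with 1 array left out, where Foxo3 was the 1 lower gene. The call of Pim1 ended without Con A replicate 2 or PBS replicate 1.

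**Figure D4:**
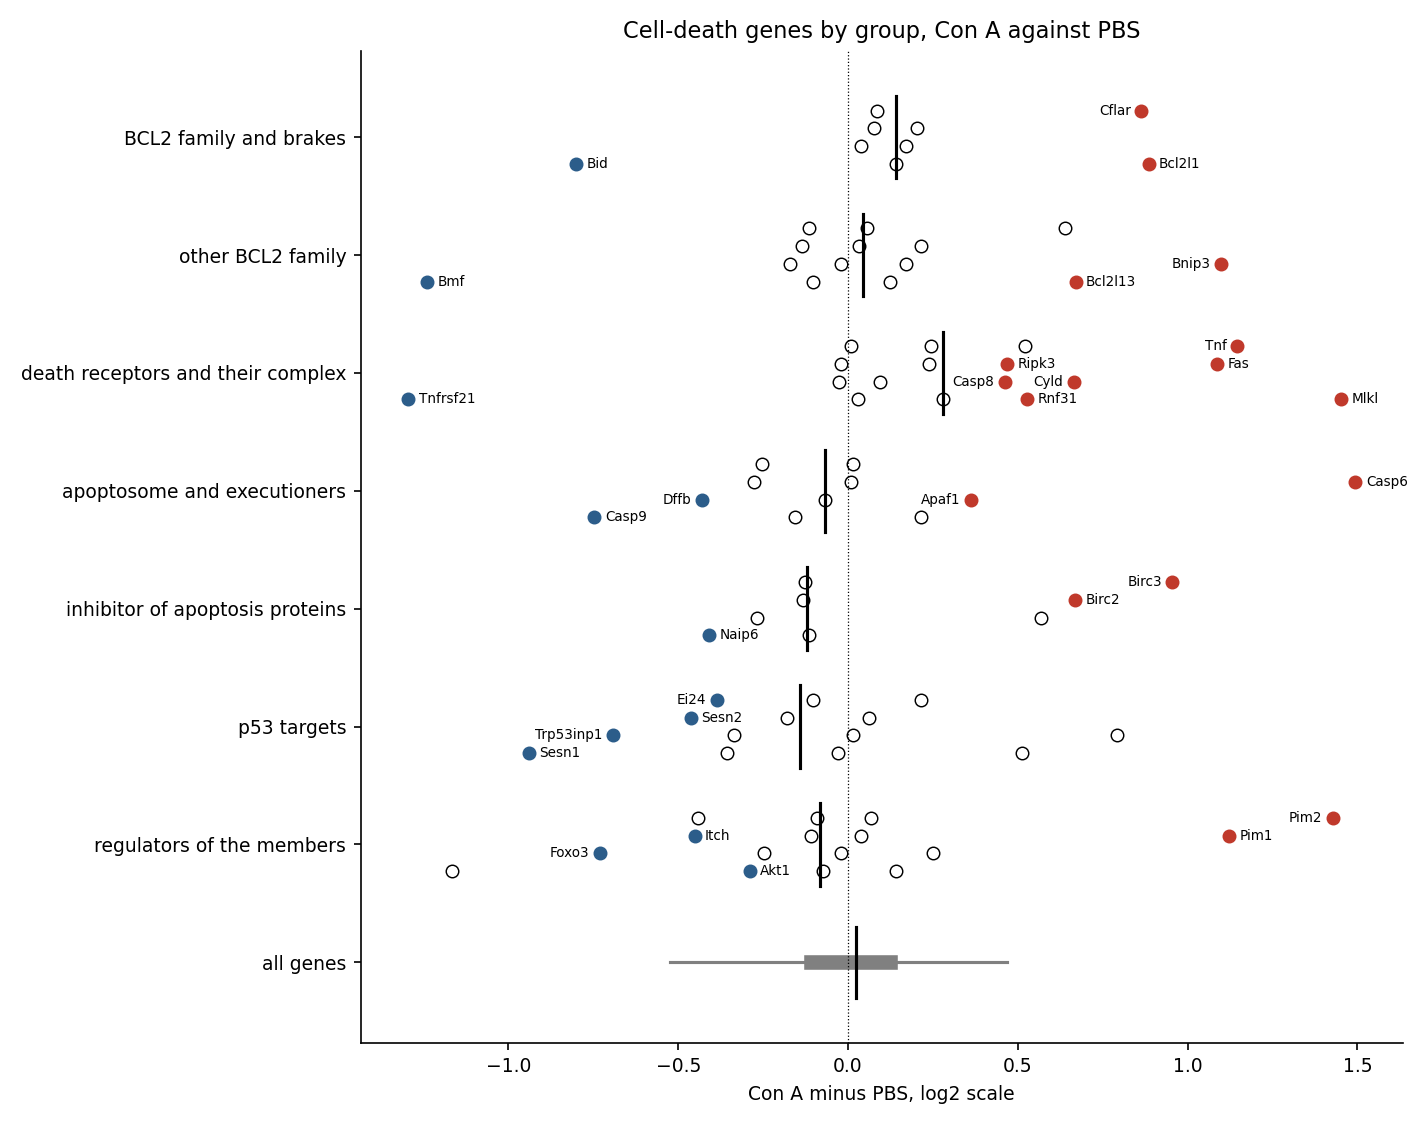
Con A minus PBS on the log2 scale for each gene of 7 groups (points), filled where the gene passed the threshold (right of 0 higher after Con A, left of 0 lower), with the group's median as a bar; the lowest strip gives all 19938 genes from percentile 5 to 95 (thin line, -0.53 to 0.47) and from 25 to 75 (thick line). Death receptors and their complex have the highest group median, 0.28, and Bmf, Tnfrsf21, Mlkl and Casp6 lie farthest out among genes that passed, with Pim2.

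Markers of the cell types the sort could hold were measured beside the members. Granulocytic markers averaged 12.6 to 12.7 on the Con A arrays and 12.5 to 12.6 on the PBS arrays, and 13 of 15 did not pass; Il1r2 rose and Mmp9 fell, and the Il1r2 call ended without Con A replicate 2 or PBS replicate 1. Of 12 monocytic markers 4 fell (Ccr2, Cx3cr1, F13a1 and Fn1) and 2 rose (Cd14 and Irf8), with means of 9.77 to 10.36 after Con A and 10.64 to 11.08 after PBS; 0 rose without Con A replicate 2, Con A replicate 3 or PBS replicate 1. Of 12 eosinophil, basophil and mast cell markers 5 rose (Epx, Prg2, Siglecf, Kit and Gata2), with means of 8.22 to 9.09 after Con A and 7.52 to 8.12 after PBS, but 1 rose without Con A replicate 1, Con A replicate 3, PBS replicate 1 or PBS replicate 3.

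Of 11 measured T cell markers, which EL4 cells could carry, 0 passed by limma and 2 had an unadjusted p under 0.05 (Cd8a and Cd28), with means of 6.85 to 7.11 after Con A and 6.78 to 7.04 after PBS beside array medians of 7.05 to 7.08. Kupffer and hepatocyte markers were highest in Con A replicate 2, at 9.22 and 8.53, where the other Con A arrays had 7.74 to 8.23 and 7.71 to 7.75 and the PBS arrays 7.85 to 8.17 and 7.69 to 7.75. Slc40a1 fell among the Kupffer markers, and 0 of 11 hepatocyte and 0 of 10 dendritic cell markers passed. Gzmb rose among 8 NK cell markers, Ms4a1 fell among 7 B cell markers, and of 10 endothelial and stellate cell markers Pecam1 rose and Lyve1 fell. With 1 array left out, 0 to 4 NK cell markers rose (4 without Con A replicate 2, 0 without Con A replicate 1 or PBS replicate 1) and 0 to 3 B cell markers fell (3 without PBS replicate 3, 1 without Con A replicate 3, 0 in the other 4 fits). The Lyve1 call ended without Con A replicate 2 or PBS replicate 1. Without Con A replicate 2, Bcl2l1, Cflar and Bid differed by 0.85, 0.79 and -0.79, each past the threshold. The part of the monocytic and eosinophil shifts in the member results was not tested.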

How the data were processed

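The 6 arrays of RNA from sorted liver cells fall into 2 groups of 3. RNA was converted with a whole-transcript kit and carried biotin, as the labels' protocols state. The values deposited by the authors are on a log2 scale, with RMA and Partek in the submitters' processing notes and no version of either. RMA brings arrays to one distribution. No detection call came with the values, so dim genes were kept, and precision is set by how few arrays there are. Of 35556 rows, 21789 had 1 symbol in the platform annotation, 1621 several and 12146 none; the first kind gave 19938 genes, of which 999 had several rows.

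Con A was set against PBS with limma's lmFit and eBayes (version 3.58.1, under R 4.3.3; two-sided, no covariates), tested on simulated data first. Python 3.11.15, pandas 2.3.3 and matplotlib 3.10.9 made the summaries. Alternatives were a replicate block, each array left out, median centring, quantile normalization, a filter on dim genes, the mean of all rows of a gene, a variance trend, array weights and no moderation; the other Cflar rows were added after seeing the data. The members, 6 pathway lists and 10 marker lists were chosen with earlier results of these data known. Named were all members, genes past the threshold in each list, and for Bcl2l1, Mcl1, Bcl2l11 and Cflar the 3 genes with the highest Pearson r, leaving out predicted genes and small RNAs. Bcl2a1c, Fadd, Xiap and Mdm2 were added after their values were seen. Promoter windows are RefSeq's (GRCm38.p6), and no source used here gives the build of the array annotation.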

Additional observations from a re-analysis of the deposited data

How the results depend on the processing

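The counts of 2 members higher and 1 lower held in all 6 fits with 1 array left out and under the other settings listed, except the fit without moderation, where 1 member was higher because Cflar missed the threshold. In that fit the adjusted p was 0.0889 for Cflar by probe set 10497931, and Bcl2l1 passed only narrowly at 0.0499. The other Cflar rows were not fitted without moderation. All genes past the threshold numbered 2355, 671 without moderation, and 1140 to 2765 with 1 array left out, where leaving out PBS replicate 1 gave 1140, Con A replicate 2 gave 1272 and Con A replicate 3 gave 1480. Small differences changed sign with 1 array left out: Bcl2 ranged from -0.121 to 0.314 (-0.100 without Con A replicate 3), Bcl2l11 from -0.011 to 0.337, Pmaip1 from -0.026 to 0.387 and Bbc3 from -0.004 to 0.071. Without moderation 21 of the 30 named genes past the threshold lost their call, 1 of them a member; Akt1 also lost it with arrays centred on their medians, and Apaf1 under quantile normalization. The cause was not tested.

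The labels state no pairing by the replicate numbers in the titles, and the values did not settle it. Deviations from the group means correlated at 0.23, -0.17 and 0.56 between arrays of the same number. Con A replicate 1 and PBS replicate 2 correlated at 0.54. Such deviations cancel out within a group of 3 arrays, so these coefficients depend on each other and cannot decide whether samples were paired. With the number as a replicate block, 2539 genes passed, Bcl2l1, Cflar and Bid had adjusted p of 0.00273, 0.0057 and 0.00318 by limma, and of the named genes Akt1 lost its call (adjusted p = 0.0867).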

Other observations

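Targets of p53, the stress-activated transcription factor that induces Pmaip1 and Bbc3, were measured in 14 of 17 cases. None rose (0 higher, with 2 higher at an unadjusted p under 0.05) and 4 fell by limma, with a median of -0.14 on the log2 scale. Of all genes 4.59% passed higher and 7.22% lower. Sesn1, a regulator of growth signalling under stress, read 8.16, 7.75 and 7.86 after Con A, against 8.96, 8.91 and 8.72 after PBS, which put it 1.92-fold lower (limma adjusted p = 0.00363). Trp53inp1 fell by 0.69, Sesn2 by 0.46 and Ei24 by 0.39, and the groups of each did not overlap. Mdm2, the feedback ligase gene of p53, stood at 11.60 ± 0.05 after Con A and 11.58 ± 0.06 after PBS (SD, n = 3 each; limma adjusted p = 0.929). The count of lower genes was 2 without Con A replicate 1, 2 or 3 or PBS replicate 2, and 3 without PBS replicate 1, and 1 gene was higher without PBS replicate 2 or 3; Sesn1 and Trp53inp1 passed in all 6 fits.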
